A study of Mus musculus with 464 samples.

Results

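Axon guidance ligands and receptors are the secreted and membrane proteins that steer growing axons and migrating cells. The 50 genes described here were taken by name from the Slit, Robo, netrin, RGM, draxin, Dcc, Unc5, semaphorin, neuropilin, plexin, ephrin and Eph families. All 50 were among the 21973 genes of the expression table, and none was at 0 in every cell. Single cells came from mouse R1 embryonic stem cells, kept before differentiation with LIF (1000 U/ml), a cytokine that holds stem cells undifferentiated, and Knockout Serum Replacement (15%). Embryoid bodies, which are aggregates of differentiating stem cells, were formed in hanging drops over 48 hours and then held for 4 days with retinoic acid, at a dose the labels state as 0.5 mM. Capture used a Fluidigm C1, and SMART-Seq V4 cDNA was made into Nextera XT libraries. Every labelled sample is a cell of this 1 group, with no untreated sample and no named culture. The cells were therefore treated as 1 sample: differences between cell states have no replicate check, and no p-values are given. Cell filters removed 6 cells, and 1 column of each of 55 near-identical pairs was kept, which left the distinct cells described here.

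Slit proteins are secreted ligands that act mostly as repellents through Robo receptors, and Robo3 is known for its role in neurons whose axons cross the midline. Netrin-1 attracts axons through Dcc and repels them where Unc5 receptors take part, while RGM proteins bind neogenin (Neo1). Class 3 semaphorins signal through neuropilins and class A plexins, and membrane semaphorins bind plexins directly. Ephrins sit on the cell surface and bind Eph receptor kinases on the neighbouring cell, with A-type ephrins mostly paired with EphA and B-type ephrins with EphB receptors. Retinoic acid drives embryoid bodies toward neural cells of hindbrain and spinal cord character, and part of such cultures turns into extraembryonic endoderm.

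The members were mostly long genes. In RefSeq (GRCm38.p6, the build the submitters' mm10 corresponds to) their median span was 147.4 kb, against 18.1 kb for the 20331 genes of the table with a length, and 29 of 50 spanned over 100 kb, against 11.6% of the table. RefSeq promoters, taken as 250 bases before and 50 after a transcript start, were found for 40 of the 50 members. Dcc, Efnb3, Ntn1, Plxna1, Plxna4, Rgma, Sema3f, Sema6a, Slit1 and Unc5d had no entry. The 51 promoters of the 40 matched genes held a median of 22 CG dinucleotides, against 14 in 19961 promoters of other genes in the table. At least 15 CG occurred in 36 of the 51 member promoters (70.6%) and in 48.3% of the others. CG reads the same on both strands, and at least 1 CG was found in all 51 and in 95.6% of the other promoters. The sequences that follow are the 250 bases before the outermost RefSeq start of 5 members whose levels differ in different ways between the cell states, 5′ to 3′ on the gene's own strand, with CG in capitals. Each stretch lies outside the annotated gene. Efna1 (chr3:89280952-89281201, minus strand, 16 CG) and Efna3 (chr3:89322940-89323189, minus strand, 19 CG) are neighbours on chromosome 3, 32.9 kb apart, each higher than in progenitor-like cells in a different state. Slit3 (chr11:35121206-35121455, plus strand, 35 CG) and Rgmb (chr17:15831247-15831496, minus strand, 9 CG) had their highest mean levels in neuron-like cells, and Epha3 (chr16:63864176-63864425, minus strand, 16 CG) was found in progenitor-like cells and nearly absent from endoderm-like ones. A CG count is a description of these letters, and no measurement here bears on how the promoters are used.
Efna1: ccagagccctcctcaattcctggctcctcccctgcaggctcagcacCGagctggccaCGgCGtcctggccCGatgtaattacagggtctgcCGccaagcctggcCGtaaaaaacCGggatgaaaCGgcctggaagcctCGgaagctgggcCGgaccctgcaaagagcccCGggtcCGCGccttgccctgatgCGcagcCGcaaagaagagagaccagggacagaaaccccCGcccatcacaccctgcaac
Efna3: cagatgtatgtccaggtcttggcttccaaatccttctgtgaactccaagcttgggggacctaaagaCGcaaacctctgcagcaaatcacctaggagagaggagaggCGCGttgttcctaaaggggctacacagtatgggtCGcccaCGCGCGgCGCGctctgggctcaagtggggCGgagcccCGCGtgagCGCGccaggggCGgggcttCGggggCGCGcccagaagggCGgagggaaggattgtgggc
Slit3: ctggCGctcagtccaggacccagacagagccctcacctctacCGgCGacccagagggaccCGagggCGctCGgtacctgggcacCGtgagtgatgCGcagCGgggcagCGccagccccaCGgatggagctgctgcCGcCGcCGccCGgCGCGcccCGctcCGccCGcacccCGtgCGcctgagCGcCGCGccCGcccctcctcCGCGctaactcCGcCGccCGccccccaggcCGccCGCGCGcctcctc
Rgmb: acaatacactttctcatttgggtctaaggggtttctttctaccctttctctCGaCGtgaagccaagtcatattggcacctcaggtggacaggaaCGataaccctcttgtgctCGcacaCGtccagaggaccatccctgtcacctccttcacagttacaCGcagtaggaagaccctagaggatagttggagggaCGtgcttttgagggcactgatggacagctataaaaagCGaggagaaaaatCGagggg
Epha3: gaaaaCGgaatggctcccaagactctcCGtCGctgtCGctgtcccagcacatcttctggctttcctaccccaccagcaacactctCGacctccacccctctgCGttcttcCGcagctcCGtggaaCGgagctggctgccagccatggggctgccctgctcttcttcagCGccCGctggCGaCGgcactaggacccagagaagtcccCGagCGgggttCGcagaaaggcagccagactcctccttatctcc

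Cell states were set by 3 lists of 8 marker genes that hold no member. A marker counted at 5 TPM or more, where TPM is a length-corrected measure of a gene's share of a cell's transcripts. Cells with at least 3 endoderm markers and neither neural list numbered 56 (13.9% of cells, 10.7 to 17.7) and are called endoderm-like. Cells with at least 5 neuron markers and no endoderm call were neuron-like, with 52 cells of column set 1 and 56 of column set 2 (26.8%, 22.5 to 31.4), whether or not they also passed the progenitor threshold of 3 markers. The progenitor-like state held the cells (44.2%, 39.3 to 49.2) with at least 3 neural progenitor markers alone and was the largest. A further 49 cells (12.2%, 9.13 to 15.8) passed the endoderm and a neural threshold and are called mixed-marker cells (endoderm and neural in the plots). The 12 remaining cells passed none. Intervals here and below are exact Clopper-Pearson 95% intervals in parentheses, and they cover counting error only. No doublet caller was run, since TPM values hold no counts. The mixed-marker cells had the most genes above 0, with a median of 8000, against 7015.5 in neuron-like, 6713.5 in progenitor-like and 6059 in endoderm-like cells. The part of doublets and of gene number in the values of these cells was not tested.

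The table's columns fall into 2 sets by name, which carry different lane tags. The sets differed in their make-up: 51.3% of set 1 and 35.2% of set 2 cells were progenitor-like, and 8.48% and 16.8% were mixed-marker. With repeat columns kept in both sets, the shares were 51.3% and 41.5% progenitor-like and 8.48% and 15% mixed-marker. Few markers of mesoderm, endothelium, blood and floor plate were widely detected. No more than 1 of 7 mesoderm, 1 of 6 endothelium and blood, and 2 of 6 floor plate genes reached 10% of the cells of any state, and the floor plate list shares Foxa2 with the endoderm list. Of the 5 neural crest genes, 3 reached 10% of neuron-like cells, 2 of progenitor-like, 2 of mixed-marker and 0 of endoderm-like cells. The floor plate ligand gene Shh was at 0 in endoderm-like and mixed-marker cells and detected in 2 neuron-like and 1 progenitor-like cell. The mesoderm genes T, Tbx6 and Mesp1 and the blood gene Hbb-bh1 were at 0 in all 4 states. Of the neural crest list, Foxd3 was found in 24.1% (16.4 to 33.3) of neuron-like and 3.37% (1.25 to 7.19) of progenitor-like cells, and Sox10 in under 10% of either. Tal1, a blood gene also known from spinal interneurons, was detected in 13% (7.27 to 20.8) of neuron-like cells. Foxd3 also marks some spinal interneurons. The summed level of the 5 crest genes had a median of 0 in each state and a maximum of 163.2 TPM in neuron-like and 200.6 TPM in progenitor-like cells. The part of such cells in the results was not tested.

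Columns taken as repeat measurements of the same cell gave a view of technical error. For 55 cells the table held a near copy in the other column set (Pearson correlation 0.946 to 0.990 across genes), and these pairs were reduced to 1 column. The pairs were found by a correlation above 0.93, so their agreement is partly set by that rule. Noisier repeats would have been missed. Over the 50 members and 55 pairs, 768 values reached 1 TPM in at least 1 of the 2 columns, and 683 of them (88.9%) did so in both. Where both columns detected the gene, they differed by a median of 0.31 on the log2(TPM + 1) scale. Where only 1 did, its value had a median of 1.70 TPM. For Slit2 the call was shared in 15 of 18 pairs with any signal, and for Rgmb in 37 of 40. Within pairs chosen this way, presence or absence of a member was mostly the same in both columns. This spread covers sequencing and library steps as far as the copies repeat them, and which steps they repeat is not stated.

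Most members were expressed in some cells and few in most cells. At 1 TPM or more, which is called detected here, 38 of 50 were found in at least 10% of the cells (76%, against 50.6% of all genes in the table) and 11 in at least 50%. The share of the table takes in 3751 genes at 0 in every column, which lowers it, while 0 members were at 0 throughout. Efna2 was the most widely detected, in 72.7% (68.1 to 77) of cells, and Sema3e the least, in 0.744% (0.154 to 2.16). The Sema3 ligands were the sparsest family, with 1 of 5 genes above 10%. The number of members detected per cell had a median of 18 in neuron-like, 17 in mixed-marker, 13 in progenitor-like and 6 in endoderm-like cells. Gene number also differs between the states. Per 1000 genes above 0 the medians were 2.50, 2.09, 1.95 and 0.988, so the neuron-like cells held the most and the endoderm-like cells the fewest on that scale too. The per-cell ranges overlapped: 4 to 31 in neuron-like, 4 to 28 in progenitor-like and 2 to 15 in endoderm-like cells. The leading members by mean level, which TPM allows to be set between genes, were Slit2, Rgmb and Robo3 in neuron-like cells, Efna2, Plxnb2 and Unc5a in progenitor-like cells, and Efna1 and Plxnb2 in endoderm-like cells.

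**Figure D1:**
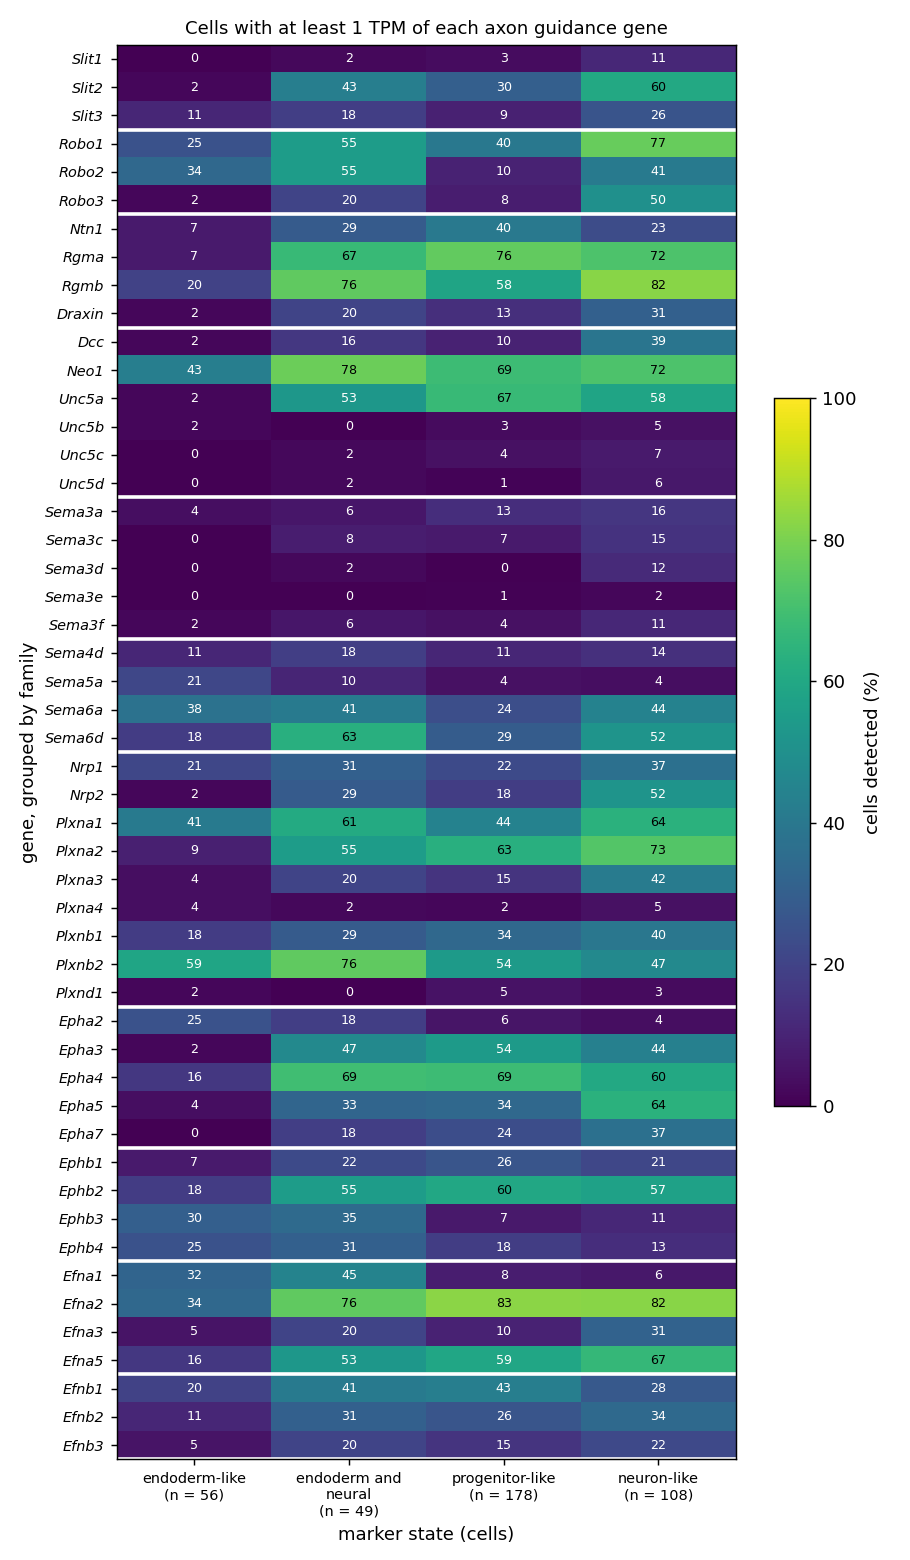
Heat map of the percent of cells in which each of the 50 members (rows, grouped by family) reached 1 TPM, in the 4 cell states (columns), with the percent written in each field. Efna2, Rgma, Rgmb and Neo1 stand at 58.4% or more in both progenitor-like and neuron-like cells, while Rgma and Unc5a stand at 7.14% and 1.79% in endoderm-like cells.

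Neuron-like cells had higher levels of several guidance genes than progenitor-like cells, led by Slit2 and Robo3, and lower levels of none by the rule used. A gene was counted as higher or lower where its mean TPM plus 1 differed at least 2-fold between the states, among genes detected in at least 10 of their cells. Folds and log2 differences are of these means plus 1 throughout, which understates the differences of low genes. Of the 47 members tested, 13 were higher (27.7%), against 8.55% of the 12595 genes tested in the table. None was lower, against 2.95% of the table. The higher ones were Slit2, Slit3, Robo2, Robo3, Rgmb, Dcc, Sema3d, Sema3f, Sema6a, Nrp2, Plxna3, Epha5 and Efna3. Their folds ran from 2.32 for Sema3f to 8.93 for Slit2, and 12 of the 13, all but Plxna3, had ratios past 2-fold in both column sets. Within a set, Sema3d (either set) and Sema3f (set 2) were detected in fewer than 10 cells and so could not be tested there. Sema3d and Sema3f reached 10 cells in the neuron-like state only, and Sema3d, at 0 in progenitor-like cells, could not have been counted as lower. With detection in at least 10 cells of each state required, a setting chosen after the data had been seen, 11 of 38 members were higher (28.9%, against 7.05% of the table) and 0 lower (against 2.69%). The median log2 difference over the 47 was 0.25, against 0.02 for the table. Unc5d, Sema3e and Plxna4 were found in too few cells to test. Since progenitor-like and neuron-like cells can both carry progenitor and neuron transcripts, the states are neighbouring ranges of marker counts, not separate clusters.

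Endoderm-like cells had lower levels of 20 guidance genes and higher levels of Efna1, Robo2, Ephb3 and Sema5a. Against the same progenitor-like cells, 20 of the 42 members tested were lower (47.6%), where 21.2% of the 12352 genes tested in the table were lower. The 4 higher members made up 9.52%, under the table's 16%. The lower ones took in 4 EphA receptors, Ephb1 and Ephb2, Efna2 and Efna5, 4 neuropilins and plexins, Slit2, Robo3, Ntn1, both RGM genes, Neo1, Unc5a and Sema3a. The median log2 difference was -0.87 over the 42 members and -0.23 over the table, and endoderm-like cells also had the fewest genes above 0. Among cells with 5500 to 7500 genes, an alternative chosen after the data had been seen, 18 of 38 members tested were lower (against 22.3% of the table) and 5 higher (against 16.1%) in endoderm-like cells. In neuron-like cells 13 of 39 were then higher (against 9.37% of the table) and 1 lower (against 5.99%). With detection in at least 10 cells of each state required, 17 members were left, of which 5 (Rgmb, Neo1, Plxnb1, Ephb2 and Efna2) were lower in endoderm-like cells (29.4%, against 15% of the table) and 3 higher (17.6%, against 16%). The other lower members reached 10 cells in the progenitor-like state only, where they are higher. Of the 24, 18 had ratios past 2-fold the same way in both column sets. Robo3, Rgmb and Plxnb1 fell short in set 2, and Neo1, Ephb1 and Sema5a in set 1. Robo3, Sema3a and Sema5a were detected in too few cells of set 2 to be tested there. Mixed-marker cells stood near the progenitor-like ones: of 42 members tested, 4 were higher (Robo2, Robo3, Ephb3 and Efna1, 9.52% against 10.8% of the 12413 table genes tested) and 2 lower (Unc5a and Efna5, 4.76% against 4.14%). Both shares were close to the background. Robo2 alone of the 6 passed 2-fold the same way in both column sets, but it was under 2-fold among cells with 5500 to 7500 genes (log2 0.52 against 1.31). Set against the mixed-marker cells, endoderm-like cells had 16 of 37 members tested lower (43.2%, against 12.8% of the table) and 2 higher (Sema5a and Efna1, 5.41% against 6.11%). Of these 18, 11 had ratios past 2-fold the same way in both column sets. Detection in at least 10 cells of each state was not required here. Some lower members reached 10 cells in the mixed-marker state only, where they are higher. Among them were Slit2 (1 endoderm-like and 21 mixed-marker cells) and Robo3 (1 and 10). The 3 comparisons with progenitor-like cells share those cells, so a value that is off in that state moves all of them.

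**Figure D2:**
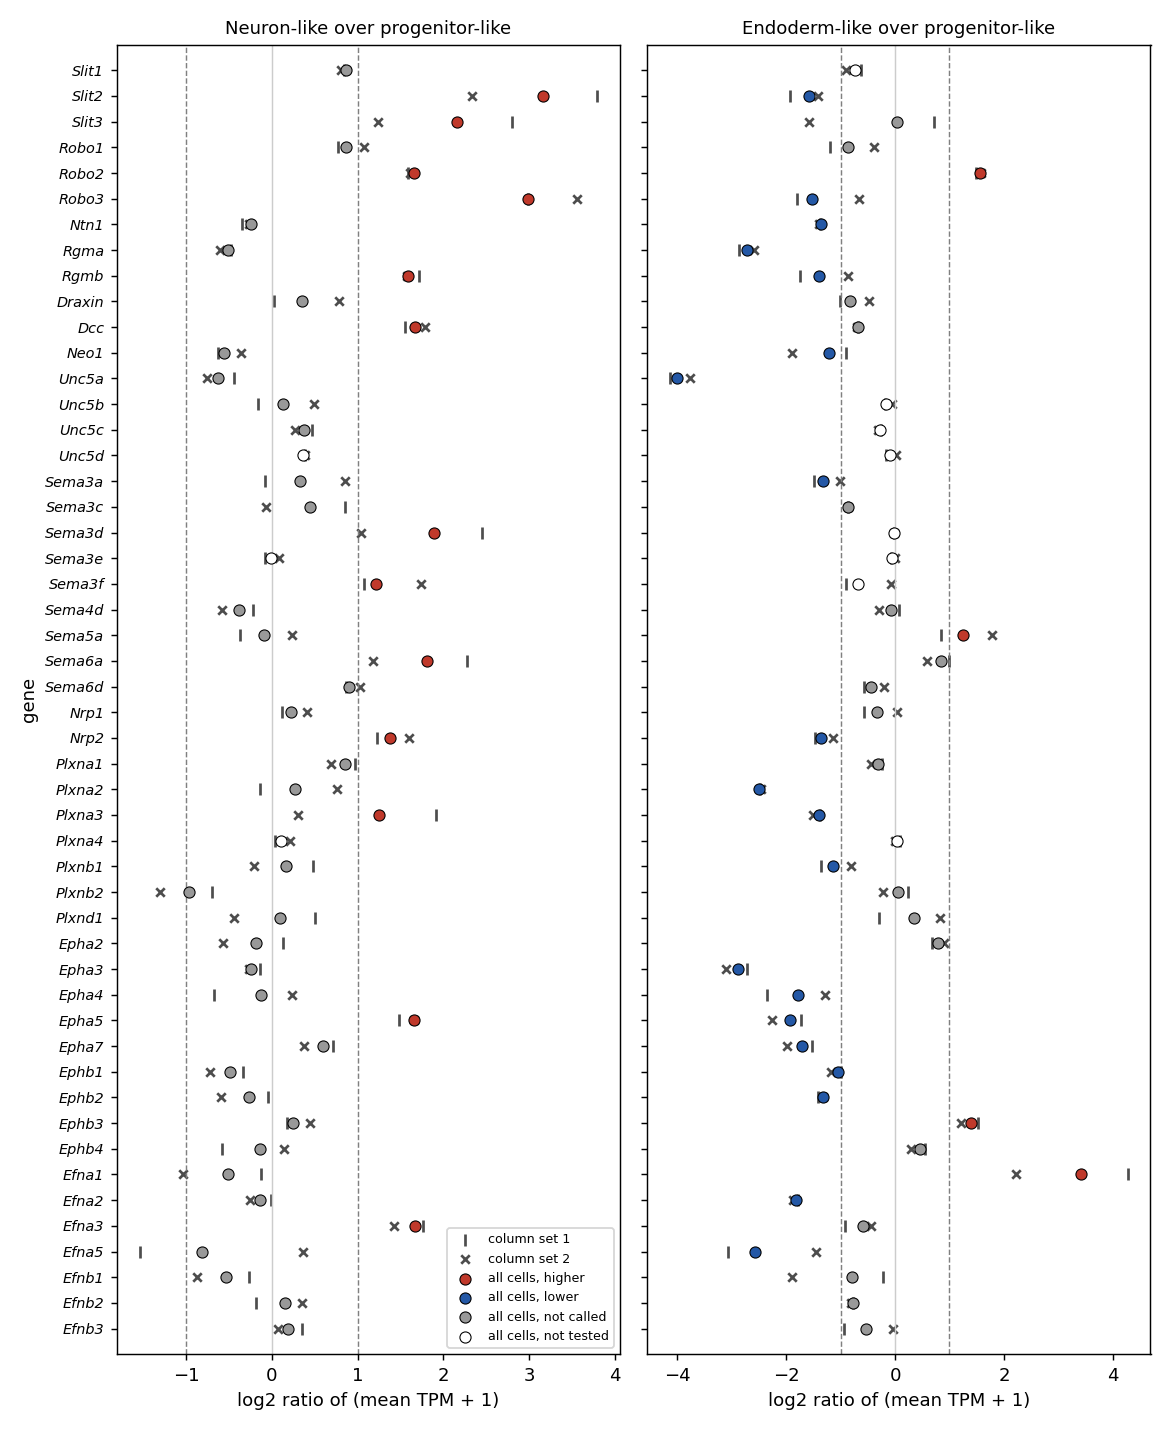
Log2 of the ratio of mean TPM plus 1 for each member, neuron-like over progenitor-like cells (left) and endoderm-like over progenitor-like cells (right), with dashed lines at 2-fold, circles for all cells (red higher, blue lower, grey neither, white not tested), bars for set 1 and crosses for set 2. On the left 13 members lie past the upper line and none past the lower, with Slit2 at 3.16; on the right 20 lie past the lower line, with Unc5a at -4.00, and 4 past the upper, with Efna1 at 3.41.

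Among the Slit ligands, Slit2 was the leading gene. Its level ran from 0 to 744.3 TPM with a median of 4.23 in neuron-like cells, and from 0 to 107.3 TPM with a median of 0 in progenitor-like cells. The ranges overlapped, but no progenitor-like cell passed 107.3 TPM. It was detected in 60.2% (50.3 to 69.5) and 30.3% (23.7 to 37.7) of these cells, in 42.9% (28.8 to 57.8) of mixed-marker and 1.79% (0.0452 to 9.55) of endoderm-like cells. The mean was 3.84 TPM in progenitor-like, 42.2 in neuron-like, 7.06 in mixed-marker and 0.625 in endoderm-like cells. The neuron-like mean plus 1 was 8.93-fold that of progenitor-like cells (log2 3.16, 3.79 in set 1 and 2.33 in set 2). Slit3 followed with 25.9% detection and a mean of 11.2 TPM in neuron-like cells against 8.99% and 1.73 TPM in progenitor-like cells (log2 2.16). Slit1 was rare, at 11.1% and 3.37%, with a log2 difference of 0.87 that was under the 2-fold line.

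The Robo receptors differed from one another across the states. Robo1 was the most widely detected, in 39.9% of progenitor-like, 76.9% of neuron-like, 55.1% of mixed-marker and 25% of endoderm-like cells. Its mean was 2.70 TPM in progenitor-like, 5.72 in neuron-like, 3.20 in mixed-marker and 1.03 in endoderm-like cells and it passed none of the 3 comparisons. Robo3 was most often detected in neuron-like cells, with a share of 50% (40.2 to 59.8), against 7.87% (4.37 to 12.8) of progenitor-like cells. Its level there ran from 0 to 183.7 TPM with a median of 0.780, while the median progenitor-like cell had 0, and the log2 difference was 2.99 (2.99 in set 1 and 3.56 in set 2). In mixed-marker cells it was found in 20.4%, with a mean of 9.16 TPM and log2 differences of 0.15 in set 1 and 3.10 in set 2, so its count as higher there rests on set 2. Robo2 was higher than in progenitor-like cells in each of the other states, in mixed-marker cells only without the limit on genes per cell given above. Its mean was 1.33 TPM in progenitor-like, 6.37 in neuron-like, 4.78 in mixed-marker and 5.87 in endoderm-like cells, and detection was 9.55% (5.66 to 14.9), 40.7% (31.4 to 50.6), 55.1% (40.2 to 69.3) and 33.9% (21.8 to 47.8) in that order. Robo1 and Robo2 lie on chromosome 16, 844.5 kb apart.

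Of the ligands that act through Dcc, Unc5 and neogenin, Rgmb had the highest level. It was detected in 58.4% of progenitor-like, 82.4% of neuron-like, 75.5% of mixed-marker and 19.6% of endoderm-like cells. Its level ran from 0 to 219.2 TPM with a median of 22.3 in neuron-like cells, and from 0 to 112.7 TPM with a median of 5.33 in progenitor-like cells, with wide overlap. It was 3.0-fold higher in the neuron-like state (log2 1.72 in set 1 and 1.58 in set 2) and lower in the endoderm-like state (log2 -1.40, -1.76 in set 1 and -0.86 in set 2). The related Rgma was detected at like shares in both neural states, 75.8% of progenitor-like and 72.2% of neuron-like cells, and was detected in 7.14% (1.98 to 17.3) of endoderm-like cells, 6.59-fold lower than in progenitor-like cells. Ntn1, encoding netrin-1, was low throughout, with means of 2.03 TPM in progenitor-like, 1.56 in neuron-like, 1.36 in mixed-marker and 0.181 in endoderm-like cells, and was counted as lower in endoderm-like cells (log2 -1.36). Draxin, a secreted Dcc ligand, was detected in 13.5% of progenitor-like, 30.6% of neuron-like, 20.4% of mixed-marker and 1.79% of endoderm-like cells and passed none of the 3 comparisons.

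Their receptors fell into different patterns. Dcc was detected in 38.9% (29.7 to 48.7) of neuron-like and 9.55% (5.66 to 14.9) of progenitor-like cells, with means of 4.26 and 0.653 TPM (log2 1.67). Unc5a showed the largest difference of any member in the endoderm-like state. Its level ran from 0 to 125.2 TPM with a median of 9.10 in progenitor-like cells, but no endoderm-like cell passed 1.41 TPM and 1 of 56 reached 1 TPM. The mean was 15.5 TPM in progenitor-like, 9.70 in neuron-like, 5.79 in mixed-marker and 0.0300 in endoderm-like cells, and the endoderm-like mean plus 1 was 16-fold lower (log2 -4.13 in set 1 and -3.77 in set 2). The nearly complete lack of Unc5a in endoderm-like cells thus appeared in both column sets. Neo1 was the broadest receptor, in 68.5% of progenitor-like, 72.2% of neuron-like, 77.6% of mixed-marker and 42.9% of endoderm-like cells, and was 2.33-fold lower in the endoderm-like state, although under 2-fold in set 1 (log2 -0.91 in set 1 and -1.89 in set 2). Unc5b, Unc5c and Unc5d were each detected in at most 7.41% of any of the 4 states.

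Class 3 semaphorins were sparse. Sema3d was detected in 13 neuron-like cells, a share of 12% (6.57 to 19.7), and in 0 progenitor-like cells. The limit that a count of 0 allows is taken here as 3 cells of the state, a share of up to 1.69%. Its neuron-like mean was 2.73 TPM, and all values at or above 1 TPM outside the neuron-like and mixed-marker states lay among the unassigned cells. Sema3f was found in 11.1% (5.87 to 18.6) of neuron-like and 4.49% (1.96 to 8.66) of progenitor-like cells. A single cell held 32.2% of its neuron-like sum, and without the highest cell of each state Sema3f was under 2-fold (log2 0.99 against 1.22). Sema3a, a widely studied repellent, was the most detected of the family, in 12.9% of progenitor-like, 15.7% of neuron-like, 6.12% of mixed-marker and 3.57% of endoderm-like cells, and was lower in the endoderm-like state (log2 -1.33). Sema3c was detected in 14.8% of neuron-like cells and passed none of the 3 comparisons, and Sema3e was found in 3 cells of all states.

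The membrane semaphorins were led by Sema6d, detected in 29.2% of progenitor-like, 51.9% of neuron-like, 63.3% of mixed-marker and 17.9% of endoderm-like cells with no comparison past 2-fold, although the mixed-marker difference was just short of it. Sema6a had a mean of 1.76 TPM in progenitor-like, 8.68 in neuron-like, 4.0 in mixed-marker and 3.93 in endoderm-like cells. It was 3.50-fold higher in neuron-like than in progenitor-like cells (log2 2.28 in set 1 and 1.18 in set 2). Sema5a was found in 21.4% (11.6 to 34.4) of endoderm-like and 4.49% (1.96 to 8.66) of progenitor-like cells, with means of 1.91 and 0.218 TPM. A single cell carried 45.6% of its endoderm-like sum, and without the highest cell of each state the difference was under 2-fold (log2 0.87 against 1.26). Sema4d was detected in 10.7% to 18.4% of each state and passed none of the 3 comparisons.

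Of the 8 neuropilin and plexin genes tested, which encode semaphorin receptors, 2 were higher in neuron-like than in progenitor-like cells (25%, against 8.55% of the table). In the other direction, 0 were lower (against 2.95%). Nrp2, a receptor of Sema3f, was detected in 51.9% (42 to 61.6) of neuron-like, 18% (12.6 to 24.4) of progenitor-like and 1.79% (0.0452 to 9.55) of endoderm-like cells. Its mean was 1.62 TPM in progenitor-like, 5.79 in neuron-like, 1.62 in mixed-marker and 0.0245 in endoderm-like cells, which made it higher in neuron-like cells (log2 1.37) and lower in endoderm-like cells (log2 -1.36). Nrp1, the main Sema3a receptor, lay between 21.4% and 37% in every state and passed none of the 3 comparisons. Plxna2 was the most widely detected plexin, in 62.9% of progenitor-like, 73.1% of neuron-like, 55.1% of mixed-marker and 8.93% of endoderm-like cells, and was 5.68-fold lower in the endoderm-like state (log2 -2.48 in set 1 and -2.46 in set 2). Plxna3 was higher in neuron-like cells in the pooled cells (log2 1.25) but not in set 2 (1.91 in set 1 and 0.30 in set 2). It was lower in endoderm-like cells (log2 -1.40), as was Plxnb1 (log2 -1.14), whose detection was 33.7% in progenitor-like and 17.9% in endoderm-like cells. Plxna1 and Plxnd1 were not counted as lower in endoderm-like cells, and neither was Plxnb2. Its mean was 19.5 TPM in progenitor-like, 9.50 in neuron-like, 20.5 in mixed-marker and 20.4 in endoderm-like cells, with 58.9% (45 to 71.9) of endoderm-like cells detected. The neuron-like difference of -0.97 was just short of 2-fold. Plxna1 was detected in 63.9% of neuron-like and 44.4% of progenitor-like cells, and Plxna4 and Plxnd1 in at most 5.06% of any of the 4 states.

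The EphA receptors were the family with the largest share lower in endoderm-like cells, 4 of 5 (80%, against 21.2% of the table). All 4 reached 10 cells in the progenitor-like state only, where they are higher. Epha3 was detected in 54.5% (46.9 to 62) of progenitor-like and 1.79% (0.0452 to 9.55) of endoderm-like cells. Its level ran from 0 to 90.5 TPM with a median of 1.74 in progenitor-like cells, and 1 of 56 endoderm-like cells was above 1 TPM. The means of 9.31 and 0.401 TPM gave a log2 difference of -2.88 (-2.72 in set 1 and -3.11 in set 2). Epha4, the most widely detected of the family, had means of 9.27 TPM in progenitor-like, 8.42 in neuron-like, 6.74 in mixed-marker and 1.99 in endoderm-like cells (endoderm-like log2 -1.78). Epha7 was listed at 0 in all 56 endoderm-like cells, which allows a share of up to 5.36%, and was found in 23.6% (17.6 to 30.5) of progenitor-like cells. Epha5 also differed between the neural states: it was detected in 63.9% (54.1 to 72.9) of neuron-like, 33.7% (26.8 to 41.2) of progenitor-like and 3.57% (0.435 to 12.3) of endoderm-like cells. Its mean was 3.33 TPM in progenitor-like, 12.6 in neuron-like, 6.28 in mixed-marker and 0.129 in endoderm-like cells, and the neuron-like log2 difference was 1.49 in set 1 and 1.66 in set 2. In mixed-marker cells a single cell held 68.8% of the Epha5 sum. Epha2, an early embryonic and epithelial receptor, was detected in 5.62% of progenitor-like, 3.70% of neuron-like, 18.4% of mixed-marker and 25% of endoderm-like cells, and passed none of the 3 comparisons.

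Of the EphB receptors, Ephb2 and Ephb3 ran in opposite directions. Ephb2 was detected in 60.1% of progenitor-like, 57.4% of neuron-like, 55.1% of mixed-marker and 17.9% of endoderm-like cells, with a log2 difference of -1.33 in the endoderm-like state. Ephb1 was also lower there, at 7.14% against 26.4% (log2 -1.05, close to the 2-fold line). Ephb3 was found in 30.4% (18.8 to 44.1) of endoderm-like and 34.7% (21.7 to 49.6) of mixed-marker cells, against 6.74% (3.53 to 11.5) of progenitor-like cells. Its mean was 0.516 TPM in progenitor-like, 0.801 in neuron-like, 2.32 in mixed-marker and 2.97 in endoderm-like cells (log2 1.39 and 1.13 against progenitor-like cells). Ephb4 was detected in 18% of progenitor-like, 13% of neuron-like, 30.6% of mixed-marker and 25% of endoderm-like cells and passed none of the 3 comparisons.

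Among the A-type ephrins, Efna1 was the member with the highest mean in the endoderm-like state and Efna3 was higher in the neuron-like state. Efna1 was detected in 32.1% (20.3 to 46) of endoderm-like and 44.9% (30.7 to 59.8) of mixed-marker cells, against 7.87% (4.37 to 12.8) of progenitor-like and 6.48% (2.65 to 12.9) of neuron-like cells. Its level ran from 0 to 601.6 TPM with a median of 0 in endoderm-like cells and from 0 to 110.04 TPM with a median of 0 in progenitor-like cells, so a minority of endoderm-like cells carried the difference. The mean was 2.73 TPM in progenitor-like, 1.61 in neuron-like, 11.8 in mixed-marker and 38.6 in endoderm-like cells, which made the endoderm-like mean plus 1 10.6-fold higher (log2 4.27 in set 1 and 2.22 in set 2). The mixed-marker difference was log2 2.90 in set 1 and 0.61 in set 2. Efna3, the neighbouring gene, was found in 31.5% (22.9 to 41.1) of neuron-like, 9.55% (5.66 to 14.9) of progenitor-like and 5.36% (1.12 to 14.9) of endoderm-like cells, with a neuron-like log2 difference of 1.67 (1.76 in set 1 and 1.43 in set 2). Thus the promoters of the 2 neighbours, printed above, belong to genes with their highest mean levels in different states. This leaves out the 12 unassigned cells, where 1 cell gave Efna1 a higher mean.

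Efna2 was found at like shares in both neural states. It was detected in 82.6% (76.2 to 87.8) of progenitor-like, 82.4% (73.9 to 89.1) of neuron-like and 33.9% (21.8 to 47.8) of endoderm-like cells. Its level ran from 0 to 142.4 TPM with a median of 19 in progenitor-like cells and from 0 to 41.6 TPM with a median of 0 in endoderm-like cells, a log2 difference of -1.82 (-1.78 in set 1 and -1.88 in set 2). Efna5 was detected in 59% of progenitor-like, 66.7% of neuron-like, 53.1% of mixed-marker and 16.1% of endoderm-like cells. A single progenitor-like cell at 1062.9 TPM made up 50.3% of that state's sum. Without the highest cell of each state the endoderm-like difference was log2 -1.91 against -2.57 with it, still past 2-fold, and the mixed-marker difference was -0.69 against -1.44, no longer past it. The B-type ephrins passed none of the 3 comparisons. Efnb1 was the most detected of them, in 42.7% of progenitor-like, 27.8% of neuron-like, 40.8% of mixed-marker and 19.6% of endoderm-like cells, and Efnb2 and Efnb3 were detected in 5.36% to 34.3% of each state.

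**Figure D3:**
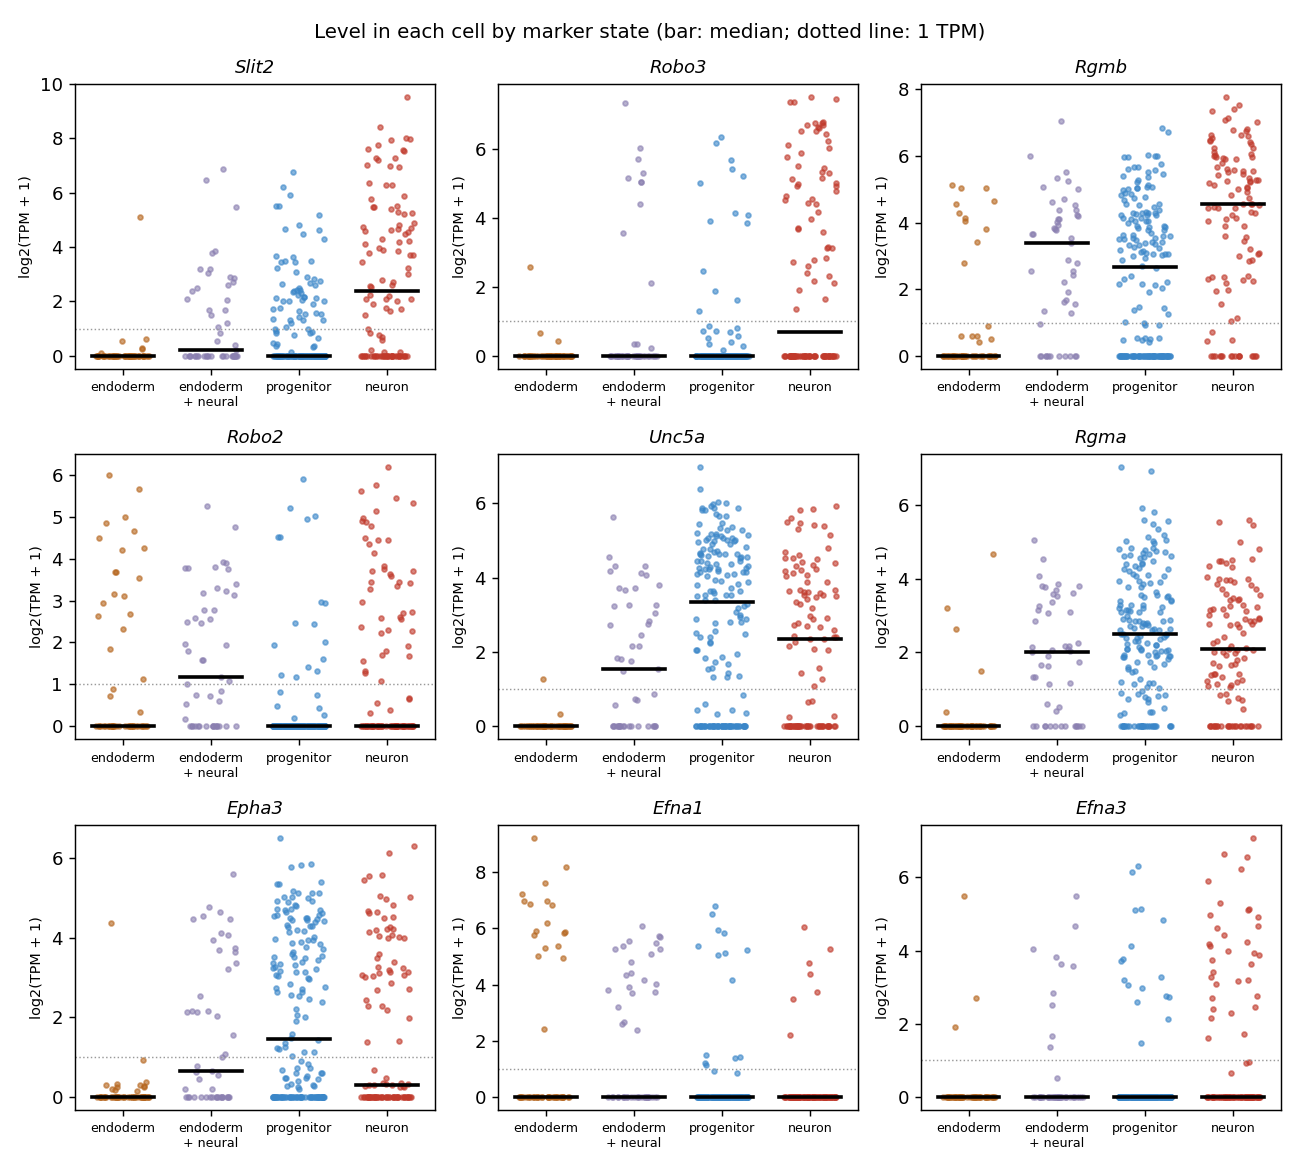
Level of 9 members in each cell other than the 12 unassigned ones, as log2(TPM + 1) by cell state, with 1 point per cell, a bar at the median and a dotted line at 1 TPM. Slit2, Robo3 and Rgmb reach their highest values in neuron-like cells, Efna1 reaches 601.6 TPM in endoderm-like cells, and Unc5a and Epha3 are nearly empty there.

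In most neuron-like cells a Slit ligand gene and a Robo receptor gene were detected together. At least 1 Slit and at least 1 Robo gene were detected together in 66 (61.1%, 51.3 to 70.3) neuron-like cells, in 38 (21.3%, 15.6 to 28.1) progenitor-like, 21 (42.9%, 28.8 to 57.8) mixed-marker and 3 (5.36%, 1.12 to 14.9) endoderm-like cells. Cells with neither numbered 5 (4.63%, 1.52 to 10.5) in the neuron-like and 63 (35.4%, 28.4 to 42.9) in the progenitor-like state. The other progenitor-like cells had a Slit gene alone in 30 (16.9%, 11.7 to 23.2) and a Robo gene alone in 47 (26.4%, 20.1 to 33.5). Robo without Slit was the largest class among the endoderm-like cells with any signal, at 22 (39.3%, 26.5 to 53.2). Within the neuron-like state, Robo1 was detected in 57 of 65 cells with Slit2 (87.7%, 77.2 to 94.5) and in 26 of 43 without it (60.5%, 44.4 to 75). The cells with Slit2 also had more genes above 0, with medians of 7375 and 6335, and the part of gene number in this was not tested.

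**Figure D4:**
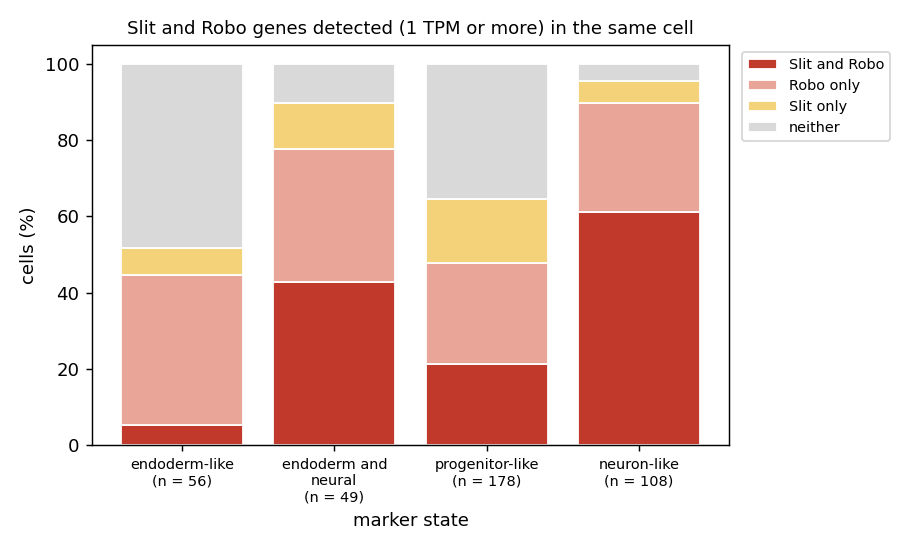
Percent of cells in each state with both a Slit and a Robo gene at 1 TPM or more, with a Slit gene alone, with a Robo gene alone, or with neither. Cells with both make up 61.1% of neuron-like, 21.3% of progenitor-like, 42.9% of mixed-marker and 5.36% of endoderm-like cells.

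Neuron-like cells were not uniform in their guidance genes: Robo3 went with Rgmb and less closely with Dcc, and Slit3 went with Slit2 and Sema3d. Over the neuron-like cells (52 of set 1 and 56 of set 2), levels were compared by Spearman correlation for the 820 pairs of the 41 members detected in at least 10 of them. These cells share 1 sample, and the values are a description. The median was 0.05, with 17 pairs above 0.3 and 1 below -0.3. Robo3 and Rgmb had the highest value, 0.64 (0.60 in set 1 and 0.65 in set 2), and the mixed-marker cells also had this pair as their highest, at 0.52 over 49 cells. Robo2 and Efna3 followed at 0.57 (0.64 in set 1 and 0.49 in set 2). Slit2 and Slit3 stood at 0.51 (0.58 in set 1 and 0.44 in set 2), Slit3 and Sema3d at 0.48 (0.55 in set 1 and 0.42 in set 2), and Slit2 and Sema3d at 0.44 (0.48 in set 1 and 0.39 in set 2). Robo3 and Dcc stood at 0.31 (0.47 in set 1 and 0.19 in set 2). Slit3 and Robo3 were the pair below -0.3, at -0.37 (-0.40 in set 1 and -0.32 in set 2). In progenitor-like cells the highest of 780 pairs was 0.30. Correlation with the number of genes above 0 ran from -0.07 to 0.41 across the 41 members, with a median of 0.20.

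The same cells were also counted by detection, for Robo3 with Slit3 and Rgmb, its lowest and highest pairs above, and with Dcc and Nrp2. For Slit3, Rgmb and Dcc the counts restate the correlations given above and are no separate support. Slit3 was detected in 6 of 54 neuron-like cells with Robo3 (11.1%, 4.19 to 22.6) and in 22 of 54 without it (40.7%, 27.6 to 55). Rgmb was detected in 51 of the cells with Robo3 (94.4%, 84.6 to 98.8) and in 38 of those without (70.4%, 56.4 to 82). Dcc, the netrin receptor, was detected in 28 (51.9%, 37.8 to 65.7) and 14 (25.9%, 15 to 39.7). Nrp2, by contrast, was found in 28 of 54 on both sides. The cells with and without Robo3 had nearly equal gene numbers, with medians of 6967.5 and 7059.

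The neuron-like state also held cells with and without progenitor markers, a division that was made after the data had been seen. Of these cells, 82 also had at least 3 progenitor markers and 26 did not. The 26 cells had higher levels of Slit2, Slit3, Robo2, Sema3f, Sema6a, Epha5 and Efna3 than the 82, and lower levels of Ntn1, Unc5a, Plxnb2 and Epha3. These were 7 and 4 of 41 members tested (17.1% and 9.76%), against 8.26% and 11.4% of the table. Against progenitor-like cells the 26 had 16 members higher of 43 tested (37.2%, with 15% of the table) and 5 lower (11.6%, with 15.5%), the latter Ntn1, Neo1, Unc5a, Plxnb2 and Epha3. The 82 had 10 higher of 46 (21.7%, with 5.99% of the table) and 0 lower (with 1.8%). For the 26, 15 of the 21 members counted against progenitor-like cells had ratios past 2-fold the same way in both column sets. For the 82 it was 6 of 10. Detection in at least 10 cells of each group was not required in these comparisons. Ntn1 and Epha3 were detected in fewer than 10 of the 26, so they were tested only through the cells where they are higher. Mean levels in progenitor-like cells, the 82 and the 26 were 3.84, 33.3 and 70.1 TPM for Slit2. They were 1.76, 4.48 and 21.9 TPM for Sema6a. The guidance receptor gene Unc5a ran the other way, with 15.5, 11.5 and 4.02 TPM, and Epha3 stood at 9.31, 9.33 and 2.66 TPM. Epha3 was detected in 53.7% (42.3 to 64.7) of the 82 and 11.5% (2.45 to 30.2) of the 26, Ntn1 in 29.3% (19.7 to 40.4) and 3.85% (0.0973 to 19.6), and Unc5a in 64.6% (53.3 to 74.9) and 38.5% (20.2 to 59.4). The detected share of Slit2 was not higher in the 26, at 46.2% (26.6 to 66.6) against 64.6% (53.3 to 74.9), but its median in the cells that had it was 57.4 against 18.6 TPM. The 26 and the 82 had medians of 5969.5 and 7428.5 genes above 0, and the part of gene number in these values was not tested. Few cells lie behind these values. Between the 26 and the 82, 5 of the 11 members (Robo2, Sema3f, Efna3, Ntn1 and Epha3) had ratios past 2-fold the same way in both sets. Slit2, Slit3, Sema6a, Epha5 and Plxnb2 were past it in set 1 alone and Unc5a in set 2 alone.

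**Figure D5:**
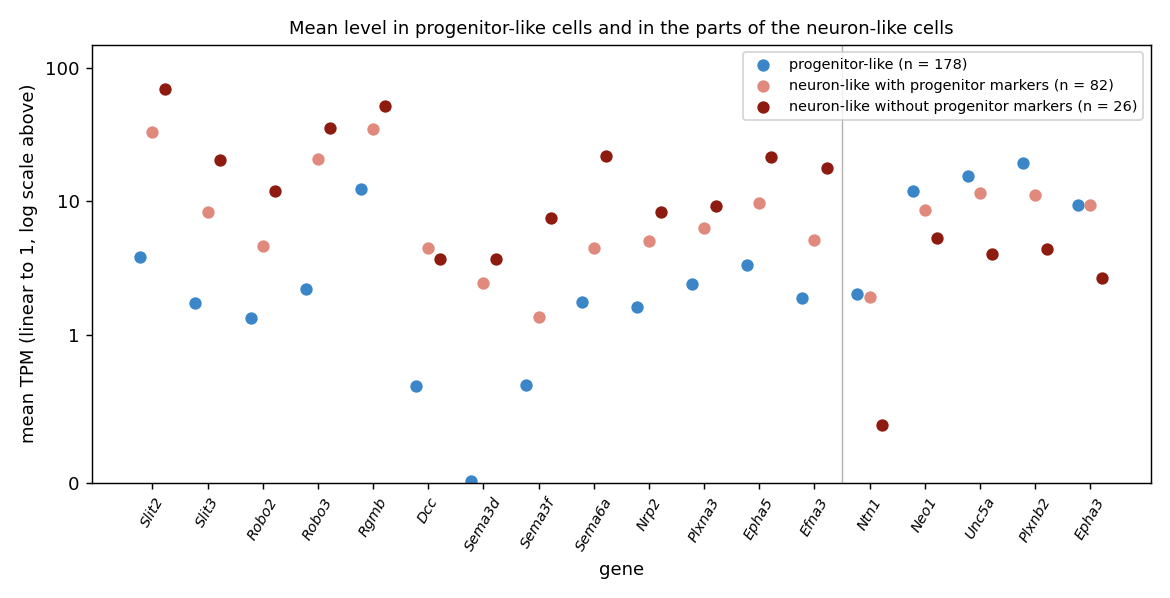
Mean TPM (linear to 1 and logarithmic above) of the 13 members higher in neuron-like cells and of Ntn1, Neo1, Unc5a, Plxnb2 and Epha3, in progenitor-like cells and in 82 neuron-like cells with and 26 without progenitor markers. Slit2 stands at 3.84, 33.3 and 70.1 TPM in that order, and Epha3 at 9.31, 9.33 and 2.66 TPM.

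Other genes of the pathway, from lists chosen with earlier results of these data known, were counted by the same rule, with the table's shares as given above. Of 32 further guidance and adhesion genes in the table, 21 were tested between neuron-like and progenitor-like cells. Ntng1, L1cam, Nrcam, Chl1 and Cntn2 were higher (5, with 8.55% of the table) and Sema5b was lower (1, with 2.95%). The cell adhesion molecule gene Chl1 had means of 15.7 and 0.323 TPM (log2 3.66), and Cntn2, an axonal adhesion protein, 10.2 and 1.19 TPM. In endoderm-like cells 17 were tested. Ntn4, Sema4a and Sema4g were higher (3, with 16% of the table), and Sema5b, Epha10, Cdon, Boc, Nrcam and Cntn2 were lower (6, with 21.2%), with Sema5b at 0.0418 against 9.90 TPM. Among 42 intracellular effectors, 40 were tested in neuron-like cells, of which 6 were higher (Dpysl3, Dpysl4, Crmp1, Srgap1, Srgap3 and Vav3, with 8.55% of the table) and 0 lower (with 2.95%). Crmp1, which encodes a collapsin response mediator protein, rested on 218.9 against 26.8 TPM (log2 2.98). In endoderm-like cells 11 of 40 effectors were lower (27.5%, with 21.2% of the table), among them Dpysl2, Dpysl3, Dpysl4, Dpysl5 and Crmp1, with Pak1 at 1.86 against 42.4 TPM, and Ablim1, Vasp, Dock1 and Mical2 were higher (10%, with 16%). In mixed-marker cells Ntng1 and Sema4a were higher and Boc lower of 18 further guidance genes tested, and 2 effectors, Rnd1 and Vav3, were higher of 40 and 0 lower, where 10.8% of the table was higher and 4.14% lower. The effector shares in endoderm-like and mixed-marker cells were thus near or under those of the table.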

How the data were processed

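Single-cell expression was analysed as 1 group of labelled cells, since the labels give no replicates. The submitters' processing notes name STAR, RSEM and mm10. The annotation behind the table is not given in the sources used here. Values were deposited by the authors as a table and were taken to be TPM, since no source states the unit. Its sums per cell were 54.2% to 95.1% of what complete TPM would sum to. TPM keeps no sequencing depth, so the depth per cell is unknown, and genes above 0 (median 6740, 2059 to 10256) stood in for it. Columns under 2000 genes above 0 or over 20% mitochondrial share were dropped (6). Of each of 55 pairs of near-copy columns (r above 0.93), the set 1 column was kept. No column was tied to a single labelled sample, since all samples carry 1 label. States, the 2-fold rule with 1 TPM added to both means, and detection are defined above. The rule of size was run on the whole table and tested on simulated data. Values are given for each member counted as higher or lower in any of the 3 comparisons and for the most widely detected member of each family, others by range, count or a single value. The members, marker lists and pathway lists were chosen with earlier results of these data known. The alternatives were other cell filters, column sets, near-copy handling, marker thresholds, added TPM, fold thresholds and scales. Python 3.11.15, numpy 2.4.6, pandas 2.3.3, SciPy 1.17.1 and matplotlib 3.10.9 were used. Promoters and gene positions came from RefSeq (GRCm38.p6).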

Additional observations from a re-analysis of the deposited data

How the results depend on the processing

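The 43 member results counted as higher or lower were recomputed under 16 alternatives each. Of 688 values, 608 stayed past the threshold in the same direction, 70 fell short of it, 10 were lost because too few cells detected the gene, and 0 reversed. Adding 0.1 TPM in place of 1 widens every ratio, and dropping the filter on detected cells leaves the ratios unchanged. Neither setting could lose a result, so the 43 values kept under each are no check. Under all 16, Epha5, Rgmb, Robo2, Robo3 and Slit2 stayed higher in neuron-like cells, Efna1 stayed higher in endoderm-like cells, and Efna2, Efna5, Epha3, Epha4, Plxna2, Rgma and Unc5a stayed lower there. No mixed-marker result did so. Leaving out the highest cell of each state and keeping cells with 5500 to 7500 genes were chosen after seeing the data. Requiring detection in at least 10 cells of each state was also chosen then and is not among the 16. It left 5 members lower in endoderm-like cells (against 20). Of the genes named above as lower there, Efna2 alone is among these 5. The others reached 10 cells in the progenitor-like state only. With a difference of mean log2(TPM + 1) of at least 1 in place of the ratio of means, 7 members were higher in neuron-like cells (against 13), 1 higher and 10 lower in endoderm-like cells (against 4 and 20), and 1 lower in mixed-marker cells (against 2). At 3-fold, 1 was higher and 9 lower in endoderm-like cells, and 2 higher and 0 lower in mixed-marker cells (against 4 and 2). Members lower in neuron-like cells numbered 1 in set 1, without the cells with the most genes, with 0.1 TPM added, without the highest cell and at 5500 to 7500 genes, and 2 in set 2, against 0. Members lower in mixed-marker cells numbered 1 under the stricter cell filter, with 1 more marker and without the highest cell, and 4 at 5500 to 7500 genes. Apart from those given in the sections above, the table's shares are not set beside these counts. The counts therefore do not show how the members stand against other genes under each setting. The mixed-marker share was 8.48% in set 1, 16.8% in set 2 and 8.26% at 5500 to 7500 genes, and the progenitor-like share 51.3% in set 1 and 35.2% in set 2. With 1 fewer marker 31.8% of cells were neuron-like, and at 5500 to 7500 genes 19.3% were endoderm-like. The cause was not tested. Members found in at least 10% of cells numbered 29 at 5 TPM and 40 at any value above 0, against 38. No paired analysis was possible because there is 1 group. Low detection limits the sparse members: at 0 of 56 endoderm-like cells the limit of 3 cells allows a share of up to 5.36%.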

Other observations

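The 12 cells that passed no marker threshold entered no comparison. Rgmb was detected in 7 of them and Plxna2 in 6. Robo1, Epha7 and Efna5 were each detected in 5. Their highest mean member level was 94 TPM for Efna1, which 1 cell carried at 1127.4 TPM. Nrp1 had a mean of 21.2 TPM and was detected in 4 cells.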
